A study of Mus musculus with 12 samples.

Results

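Short-gap clonotypes are productive T cell receptor (TCR) beta chain rearrangements in which the deposited alignment left 3 or fewer nucleotides between the trimmed end of the V segment and the trimmed start of the J segment. A clonotype was productive when its complementarity-determining region 3 (CDR3), the loop that contacts peptide, had no frameshift and no stop codon. The rule used only the alignment points of each clonotype, with no abundance, and found 7395 of 93537 productive clonotypes (7.91%). They carried 194261 of 1622417 productive unique molecular identifiers (UMIs), which is 11.97%. The remaining 86142 productive clonotypes, with gaps over 3 nucleotides, served for comparison.

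The clonotypes came from donor CD4+ T cells recovered from mesenteric lymph node (mLN) and spleen of lymphocyte-deficient Rag2–/– recipients, 6 weeks after transfer of naive T cells to induce colitis. All mice were on the C57BL/6 strain. WT donors carried Prkaa1fl/fl alone and KO donors carried Prkaa1fl/fl with CD4-Cre, which deletes the AMPKα1 subunit in T cells that have passed through the CD4-expressing thymic stage, and mice were aged 6 to 8 weeks. There were 3 recipients of WT cells (replicates 1, 3 and 4) and 3 recipients of KO cells (replicates 1, 2 and 3), called WT and KO mice here. Both organs of each were sequenced, giving 12 libraries that fall into 4 groups by genotype and organ. The paper does not state whether recipients of a genotype received cells of the same donors.

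A TCR beta chain gene is assembled in the thymus by joining a V, a D and a J segment. Exonucleases trim the ends, and terminal deoxynucleotidyl transferase adds nontemplated N nucleotides on both sides of the D segment, so the stretch between V and J is the most diverse part of the receptor. Joins with few added bases lie close to the germline sequence, are typical of fetal and neonatal repertoires made before this transferase is active, and recur between individuals more easily than joins with many random bases.

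The largest short-gap clonotype of each mouse shows what the rule selected. CDR3 nucleotide sequences are given 5′ to 3′, and capitals mark the bases that lie outside the exact match to the germline V end and to the germline J start in the reference genome (GRCm38).
WT replicate 1, TRBV1 and TRBJ2-1: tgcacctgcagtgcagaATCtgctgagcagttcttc
WT replicate 3, TRBV3 and TRBJ2-7: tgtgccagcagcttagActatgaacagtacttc
WT replicate 4, TRBV13-1 and TRBJ1-1: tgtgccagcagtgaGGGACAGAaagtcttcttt
KO replicate 1, TRBV16 and TRBJ2-4: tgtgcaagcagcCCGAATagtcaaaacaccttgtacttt
KO replicate 2, TRBV19 and TRBJ2-1: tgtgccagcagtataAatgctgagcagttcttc
KO replicate 3, TRBV3 and TRBJ2-7: tgtgccagcagcttaAGCgaacagtacttc

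In 4 of these 6 sequences, 1 to 3 bases stood between the germline ends. The WT replicate 4 clonotype had 8 such bases and the KO replicate 1 clonotype 6, although the deposited alignments gave them gaps of 3 and 2 nucleotides. These clonotypes were chosen for their size, so their ranks are a description only. By UMIs they ranked 1 to 8 in the WT libraries. In spleen of KO replicates 1, 2 and 3 they ranked 7, 3 and 21, and in mLN of KO replicates 1 and 2 they ranked 66 and 27. The WT replicate 1 clonotype was the top clonotype of its mLN library with 842 UMIs, or 7.37% (Wilson 95% confidence interval 6.91% to 7.87%), and held 3.33% in spleen. The WT replicate 4 clonotype was the top clonotype of its spleen with 33543 UMIs, or 8.12% (8.04% to 8.21%), and held 1.75% in mLN. In KO, the leading short-gap clonotypes held 1.51% of spleen UMIs in replicate 1, 1.92% in replicate 2 and 0.745% in replicate 3. In mLN they held 0.296% and 0.766% in replicates 1 and 2, and 0 of 2386 productive UMIs in the library of replicate 3, which allows a share of up to 0.126%. The WT replicate 3 clonotype held 1.05% in mLN and 1.39% in spleen. These percentages are of productive UMIs. Intervals and limits of this kind cover counting error only.

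The name of these clonotypes was then checked against the genome, because the deposited gap depends on how far the aligner extended each segment. The J alignment started upstream of the first coding base of the J segment in 51.7% of the short-gap clonotypes and in 14.8% of the others. The J alignment carried mismatches or gaps in 65.2% and 44.6%, respectively. Which sequence the aligner matched upstream of the first coding base is not stated in the sources used here. Germline coding sequence, preceded by its 20 flanking bases in capitals, is shown for the J segment with the highest share of such alignments among short-gap clonotypes and for the J segment of the KO replicate 1 clonotype.
TRBJ1-3, plus strand, chr6:41534323-41534376 (gene), GRCm38: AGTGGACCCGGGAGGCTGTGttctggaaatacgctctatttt
TRBJ2-4, plus strand, chr6:41543362-41543410 (gene), GRCm38: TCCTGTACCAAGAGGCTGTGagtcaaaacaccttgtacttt

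The CDR3 held the complete J coding end in 1449 of the 3821 short-gap clonotypes with an upstream J start. In these, the bases counted as J upstream of it were compared with the genomic flank position by position, without gaps. They equalled the flank at 25.6% of 5788 positions, and in 122 of these clonotypes (8.42%) all positions were equal. In the other clonotypes with an upstream J start, 33.9% of 12534 positions were equal. No other sequence, such as the reverse complement of the J coding end, was compared, so these values do not tell what the alignment matched. The J segments differed in the share of upstream J starts. An upstream J start was found in 80.8% of 859 short-gap TRBJ1-3 clonotypes and in 71.0% of TRBJ2-3 clonotypes, but in 23.8% of 811 TRBJ1-1 clonotypes and 32.8% of 470 TRBJ2-1 clonotypes.

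**Figure D1:**
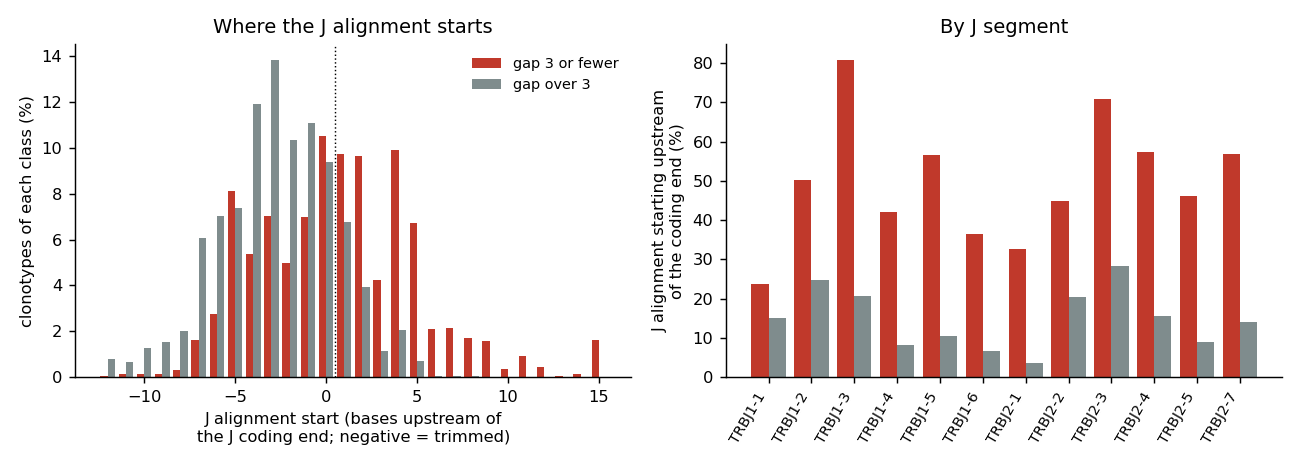
Left, start of the J alignment in bases upstream of the J coding end (negative values, bases trimmed) against the percentage of each class, for clonotypes with a gap of 3 or fewer (red) and over 3 nucleotides (grey); 0.527% and 1.89% lie outside the plotted range. Right, percentage of clonotypes of each J segment whose J alignment starts upstream of the coding end; the red bar exceeds the grey bar for all 12 segments, from 23.8% for TRBJ1-1 to 80.8% for TRBJ1-3.

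Counting instead the nucleotides between exact matches to the germline V and J ends, 1546 short-gap clonotypes (20.9%) had an exact gap of 3 or fewer, and 0 of the other productive clonotypes did. The count of 0 is not read as a result, because both gaps come from matching the same bases to germline ends. These 1546 clonotypes, called exact here, held 48.5% of the UMIs of all short-gap clonotypes. A further 3521 (47.6%) had a longer exact gap and an upstream J start, and 2318 (31.3%) had a longer exact gap with a J start inside the coding sequence. The last 10 used V segments without a germline end in the reference. The 2 classes with a longer exact gap had a median exact gap of 16 nucleotides each, against 2 in the exact class and 18 in the other productive clonotypes. Clonotypes of 1 UMI weigh heavily in these values. Among clonotypes of more than 1 UMI, 1065 of 2124 short-gap clonotypes (50.1%) were exact. The median exact gap was then 6 in each of the 2 classes, 3 in all short-gap clonotypes and 10 in the other productive clonotypes. For TRBV4 (3609 productive entries) and TRBV25 (20), the reference end differed from the most frequent untrimmed end. This can lengthen their exact gaps.

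D sequence was examined as well. The D segments TRBD1 (chr6:41533201-41533212) and TRBD2 (chr6:41542163-41542176) read as follows in GRCm38, on the plus strand.
TRBD1: gggacagggggc
TRBD2: gggactgggggggc
The deposited alignments assigned a D segment to 0 of the short-gap clonotypes and to 71.8% of the others. A run of 6 bases of either D segment nevertheless lay between the exact V and J matches in 12.3% of the class with an upstream J start and in 11.7% of the class with a J start inside the coding sequence, compared with 53.7% of the other productive clonotypes. The exact class had none, since its gap is shorter than such a run. The capitals of the WT replicate 4 clonotype begin with a run of this kind.

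The share of the exact class differed between kinds of library. In 5 libraries (the 4 from replicate 1 mice of either genotype, and the mLN library of KO replicate 3), the last 9 CDR3 nucleotides were unusual for the J segment in 2.42% to 5.85% of single-UMI clonotypes, whereas in the other 7 this held for 26.1% to 38.3%. Of the 5 libraries, 2 were WT and 3 were KO. The exact class made up 46.2% to 57.1% of the short-gap clonotypes in the 5 libraries with few unusual ends and 15.4% to 30.5% in the 7 with many. The class with a longer exact gap and a J start inside the coding sequence made up 7.14% to 16.5% and 25.2% to 37.8%, respectively. Of its clonotypes, 74.6% had mismatches or gaps in the J alignment and 91.1% had 1 UMI.

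**Figure D2:**
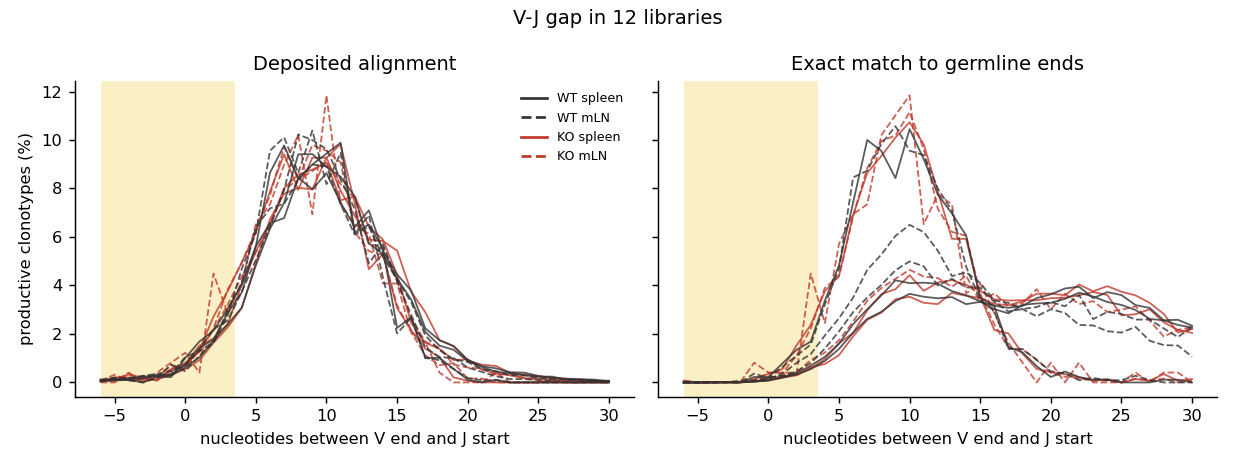
Nucleotides between V end and J start (horizontal axis, gaps from −6 to 30 shown) against the percentage of productive clonotypes in each of 12 libraries (WT grey, KO red, spleen solid, mLN dashed), by the deposited alignment (left) and by exact match to the germline ends (right); shading marks gaps of 3 or fewer. On the right the 5 libraries with few unusual J ends form a narrow peak, and the 7 libraries with many have a broad tail of long exact gaps.

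Whether loss of AMPKα1 alters the weight of short-gap clonotypes was examined first by counting clonotypes. In mLN, they formed 7.81%, 8.55% and 8.73% of productive clonotypes in WT replicates 1, 3 and 4, and 9.47%, 9.37% and 11.4% in KO replicates 1, 2 and 3. All KO mLN values lay above all WT values (mean 8.37% ± 0.487 in WT and 10.1% ± 1.16 in KO, SD, n = 3 each). KO exceeded WT by 1.73 percentage points with p = 0.1 in a two-sided exact permutation test, the smallest p that 3 against 3 mice allow, and an adjusted p of 0.4 over the 4 genotype comparisons. It was 2.64 percentage points among the 3 mLN libraries with few unusual J ends and 0.726 among the 3 with many, and the highest KO value came from the smallest library, with 28 short-gap clonotypes among 245. Without that library the difference was 1.06. The separation of the groups was not kept at equal depth (2488 UMIs drawn per library; difference 0.785, exact permutation p = 0.7), without clonotypes of 1 UMI (0.653, p = 0.5) or at a gap of 0 or less (0.304, p = 0.7).

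In spleen, short-gap clonotypes formed 9.21%, 7.10% and 8.09% of productive clonotypes in WT and 9.90%, 8.21% and 6.42% in KO, so that the groups overlapped. Means were 8.14% ± 1.06 in WT and 8.18% ± 1.74 in KO (SD, n = 3 each; exact permutation p = 0.9, adjusted p = 0.9). Within the kinds of library, KO exceeded WT by 0.682 percentage points among the 2 spleen libraries with few unusual J ends and lay below it by 0.281 among the 4 with many.

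By UMIs, which weight each clonotype by its size, short-gap clonotypes held 13.3%, 10.8% and 12.9% of productive UMIs in WT mLN and 8.07%, 10.3% and 12.1% in KO mLN. In spleen they held 9.30%, 10.2% and 17.6% in WT and 6.66%, 12.5% and 7.42% in KO. KO values were lower on average in both organs, by 2.16 percentage points in mLN (exact permutation p = 0.2, adjusted p = 0.4) and by 3.49 in spleen (p = 0.4, adjusted p = 0.533), and the groups overlapped in both. Means in WT and KO were 12.3% ± 1.36 and 10.2% ± 2.005 in mLN and 12.4% ± 4.54 and 8.87% ± 3.19 in spleen (SD, n = 3 each). KO minus WT was −3.19 and −1.51 percentage points in mLN, and −2.64 and −3.92 in spleen, among libraries with few and with many unusual J ends, respectively. The highest value, in spleen of WT replicate 4, held 72600 short-gap UMIs, of which 33543 came from its top clonotype. When the largest short-gap clonotype of each mouse was left out, the difference was 0.650 percentage points in mLN, with KO higher, and −0.881 in spleen. Restricted to the exact class, KO minus WT was −1.20 in mLN and −1.11 in spleen. With upstream J starts left out, it was −2.74 in mLN and −5.77 in spleen, where WT had 11.03% ± 3.65 and KO 5.26% ± 0.509 (exact permutation p = 0.1, the smallest possible; adjusted p = 0.4).

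**Figure D3:**
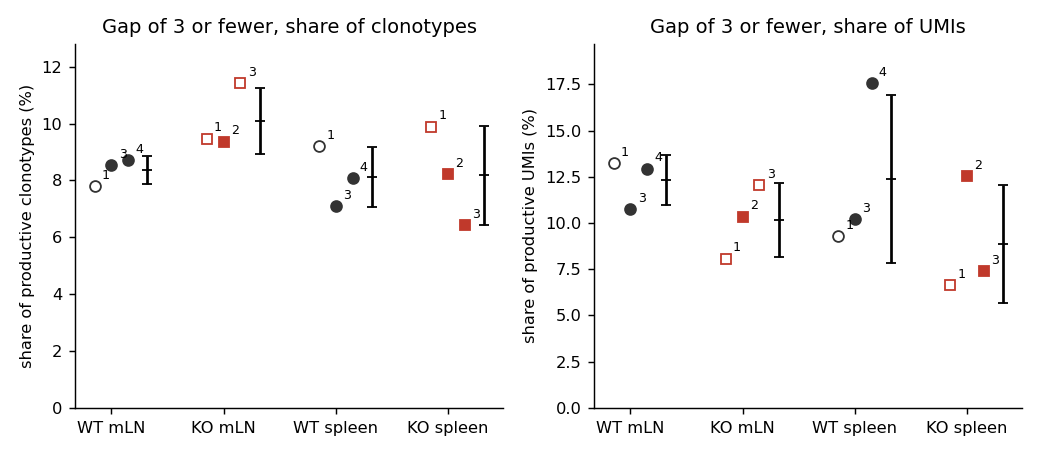
Share of productive clonotypes (left) and of productive UMIs (right) with a gap of 3 or fewer nucleotides, in percent, for each library by group; numbers are replicates, open symbols are the 5 libraries with few unusual J ends, and bars give mean ± SD of 3 mice. The shares lie between 6.42% and 11.4% of clonotypes and between 6.66% and 17.6% of UMIs.

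Between the organs of a mouse, the share of clonotypes was higher in mLN than in spleen in 4 of 6 mice, by 1.07 percentage points on average (SD of the differences 2.20, exact sign-flip p = 0.312, adjusted p = 0.625). The share of UMIs differed by 0.627 percentage points (SD 3.56, exact sign-flip p = 0.719, adjusted p = 0.719) and was higher in mLN in 4 of 6 mice. At equal depth the clonotype difference was 0.124. It was 0.284 without KO replicate 3, whose mLN library is the smallest, and the UMI difference was then −0.178.

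Short-gap clonotypes were compared with the other productive clonotypes of the same mice for abundance and sharing, which the rule did not use. Mean log2 UMIs per clonotype, averaged over the 2 organs, was 1.77, 1.16 and 0.871 for short-gap clonotypes in WT replicates 1, 3 and 4, against 1.60, 0.899 and 0.633 for the others. In KO replicates 1, 2 and 3 it was 2.30, 1.05 and 1.41 against 2.28, 0.836 and 1.26. As deposited, short-gap clonotypes were larger in 6 of 6 mice, by 0.176 on the log2 scale (SD of the differences 0.0861), while the SD between mice was 0.529 in short-gap clonotypes and 0.608 in the others. The exact sign-flip p was 0.031, the smallest that 6 mice allow, and the adjusted p over 8 such comparisons was 0.05, which does not fall under the threshold of 0.05. These 8 include V and J trimming, which the rule largely fixes, and without them the adjusted p was 0.062, as it was for both measures of recurrence described next. At equal depth the difference fell to 0.0612 with a positive sign in 4 of 6 mice (p = 0.156 by the exact test, adjusted p = 0.179). At a gap of 0 or less it was 0.0353, again positive in 4 of 6 (exact test p = 0.906, adjusted p = 0.906). In the deposited libraries it was positive in 7 of 7 libraries with many unusual J ends (mean 0.255) and in 3 of 5 with few (mean 0.0663). Clonotypes of 1 UMI were fewer among short-gap clonotypes in 5 of 6 mice, by 3.51 percentage points (SD 3.26, exact sign-flip p = 0.062, adjusted p = 0.083).

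Recurrence between mice was compared next. Of the distinct short-gap CDR3 nucleotide sequences of a mouse, 23.3%, 5.76% and 3.66% were also found in at least 1 other mouse in WT replicates 1, 3 and 4, and 17.2%, 6.13% and 7.83% in KO replicates 1, 2 and 3. For the other productive clonotypes these shares were 12.8%, 2.42% and 1.92% in WT and 9.09%, 3.83% and 3.75% in KO. Short-gap sequences were found in another mouse more often in 6 of 6 mice, by 5.005 percentage points (SD of the differences 3.49, two-sided exact sign-flip p = 0.031, adjusted p = 0.05). At the amino acid level the shares were 39.5%, 12.9%, 8.43%, 39.0%, 12.3% and 15.5% in the same order of mice, against 23.97%, 5.26%, 4.05%, 18.4%, 6.52% and 6.28%. The amino acid difference was 10.5 percentage points (SD 6.28, positive in all 6 mice; p = 0.031 by exact sign-flip test, adjusted p = 0.05). A sequence shared between mice is counted in each of them. The 6 differences in recurrence are therefore not independent, although the sign-flip test takes them as such. WT replicate 1 and KO replicate 1, the mice with the fewest distinct short-gap sequences (116 and 180), had the highest shares in both classes. With matches that were at least 100 times more frequent in the other mouse left uncounted, the differences were 4.66 and 10.2 percentage points. At equal depth they were 2.36 for nucleotide and 6.92 for amino acid sequences, still positive in 6 of 6 mice (p = 0.031 by the exact test, adjusted p = 0.062 for both).

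CDR3 length moved with the rule and is given as a description. The mean CDR3 length was 37.3 nucleotides in short-gap clonotypes and 41.8 in the others. Lengths of 33 and 36 nucleotides made up 20.1% and 20.9% of the short-gap clonotypes, against 2.80% and 8.21% of the others. With the others weighted to the lengths of the short-gap clonotypes, the differences were 5.28 percentage points for nucleotide sequences, 10.4 for amino acid sequences and 0.200 for log2 UMIs, each higher in 6 of 6 mice with an adjusted p of 0.05 (exact sign-flip test).

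The classes of short-gap clonotypes differed in recurrence, described here without a test because the classes were set after the values were known. The exact class was found in another mouse for 22.7% ± 5.48 of nucleotide sequences and 42.4% ± 7.71 of amino acid sequences (mean ± SD over 6 mice). The class with an upstream J start reached 7.28% ± 5.89 and 18.4% ± 14.7. The class with a longer exact gap and a J start inside the coding sequence reached 6.78% ± 10.2 and 10.5% ± 15.2. The other productive clonotypes reached 5.64% ± 4.35 and 10.7% ± 8.31. By construction, the exact class admits no clonotype with altered letters at the germline ends, whereas the others do. Clonotypes of 1 UMI made up 31.1% of the exact class and 77.3% of the others. Among clonotypes of more than 1 UMI alone, the exact class exceeded all remaining clonotypes by 8.67 percentage points for nucleotide and 17.4 for amino acid sequences, as means over 6 mice. In that subset its clone size exceeded theirs by 0.235 on the log2 scale, compared with 1.15 when clonotypes of 1 UMI were kept.

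**Figure D4:**
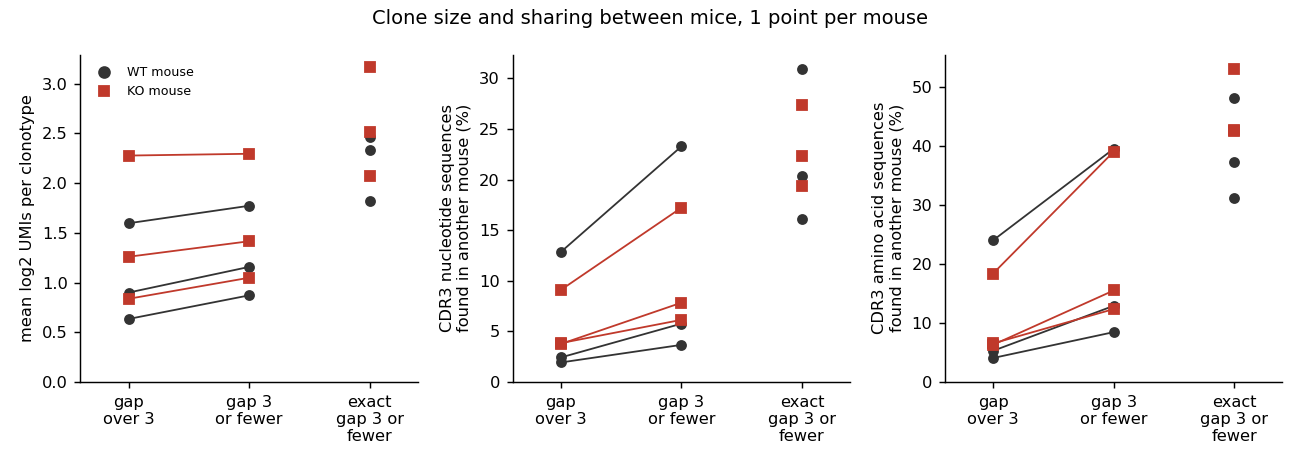
Mean log2 UMIs per clonotype (left) and the percentage of CDR3 nucleotide (middle) and amino acid (right) sequences of a mouse found in another mouse, for clonotypes with a deposited gap over 3, with a gap of 3 or fewer, and with an exact germline gap of 3 or fewer nucleotides; lines join the values of a mouse, WT grey circles and KO red squares. All 6 lines rise from the first to the second position in each panel.

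Sharing between organs and convergence differed less. Of the short-gap sequences of a mouse, 44.0%, 11.8% and 8.05% were found in both organs in WT replicates 1, 3 and 4 and 45.0%, 13.2% and 3.08% in KO replicates 1, 2 and 3. The difference from the other clonotypes was 1.40 percentage points (SD 1.73, positive in 5 of 6 mice; p = 0.094 by exact sign-flip test, adjusted p = 0.107). The number of nucleotide sequences encoding the same amino acid sequence in a mouse was 1.04 for short-gap clonotypes and 1.03 for the others (difference 0.00916, SD 0.0114, exact sign-flip p = 0.125, adjusted p = 0.125). Dependence on genotype was tested for clone size and for sharing between organs. The clone size difference was 0.224 ± 0.0429 in WT and 0.129 ± 0.0999 in KO (log2 scale, SD, n = 3 each; exact permutation p = 0.2, adjusted p = 0.4), and the difference in sharing between organs was 1.78 ± 1.59 in WT and 1.02 ± 2.13 percentage points in KO (exact permutation p = 0.7, adjusted p = 0.7). At equal depth these were 0.131 ± 0.0123 and −0.00898 ± 0.0674 for clone size (exact permutation p = 0.1, the smallest possible; adjusted p = 0.2), and 5.85 ± 1.73 and 1.37 ± 3.39 percentage points for sharing (p = 0.3, adjusted p = 0.3).

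In all, 180 of 6461 distinct short-gap nucleotide sequences (2.79%) occurred in 2 or more mice, compared with 1096 of 78275 others (1.40%). Of the short-gap sequences, 153 occurred in 2 mice, 22 in 3, 4 in 4 and 1 in all 6. The 8 found in the most mice included the leading clonotypes of WT replicates 1 and 4 and of KO replicate 1 printed above. Of the 22 sequences found in 3 mice, the 8 include the 3 with the highest summed share of UMIs. The remaining 5 are shown with the same use of capitals, except that none are set for TRBV8, whose germline end is not given in the reference.
6 mice, TRBV21 and TRBJ2-1: tatgctgagcagttcttc
4 mice, TRBV8 and TRBJ2-1: ggtgctgagcagttcttc
4 mice, TRBV3 (TRBV4 in 3 of the mice) and TRBJ2-4: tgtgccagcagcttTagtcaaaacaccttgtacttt
3 mice, TRBV13-2 and TRBJ2-5: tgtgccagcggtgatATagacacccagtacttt
3 mice, TRBV13-2 and TRBJ2-1: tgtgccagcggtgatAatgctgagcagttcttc

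The sequence found in 6 mice is unlike a regular CDR3. It had 18 nucleotides, a deposited gap of −13, all 18 nucleotides matching the end of TRBJ2-1 and no cysteine codon at its start, and it occurred in 11 of 12 libraries at 1 to 60 UMIs (0.00159% to 0.168%). The TRBV8 sequence, also of 18 nucleotides, matched TRBJ2-1 over its last 16, and TRBV8 is annotated as a pseudogene. In total, 58 short-gap clonotypes were shorter than 24 nucleotides, and 880 (11.9%) did not start with a cysteine codon, compared with 12 and 10010 (11.6%) of the others. Of the 880, 21 had more than 1 UMI.

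The other sequences start with the cysteine codon and differ in abundance between mice. The TRBV13-2 and TRBJ2-5 sequence held 5.91% of the mLN library of KO replicate 3 (141 UMIs) and 0.375% of its spleen, but 1 to 11 UMIs in KO replicate 2 and WT replicate 3. The TRBV3 and TRBJ2-4 sequence was at 1 to 40 UMIs in each library where it occurred, and at most 0.0172%. The leading clonotype of WT replicate 4 held at most 0.0326% in the other 3 mice where it was found, that of KO replicate 1 at most 0.00411%, and that of WT replicate 1 at most 0.00645%. Whether such pairs arose by exchange of molecules between libraries, or from donors common to several recipients, was not tested.

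Sequences close to a leading clonotype were also counted. In WT replicate 4, 153 further short-gap sequences of the same length lay within 3 mismatches of the leading TRBV13-1 clonotype, and 278 of its 2757 short-gap sequences used the same V and J pair. The corresponding counts within 3 mismatches were 43 in WT replicate 3, 31 in KO replicate 2, 9 in KO replicate 3, and 0 in WT replicate 1 and KO replicate 1. Library counts of 1 UMI among these sequences, up to 1 per organ and sequence, numbered 148 in WT replicate 4 and 44 in WT replicate 3. They numbered 31 in KO replicate 2 and 8 in KO replicate 3. Whether these sequences are separate rearrangements was not tested.

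V segment usage, counted as distinct short-gap CDR3 sequences per segment and mouse, differed from that of the other productive clonotypes for 3 of 23 segments tested (13.0%) by edgeR's quasi-likelihood test. TRBV16 (chr6:41151740-41152230, plus strand, GRCm38) was used more. It made up 6.11% to 10.2% of short-gap sequences in the 6 mice and 3.80% to 4.68% of the others, with no overlap (log2 fold change 0.93 ± 0.20 SE, adjusted p = 0.000242, edgeR). TRBV31, which lies downstream of the J and C segments in inverted orientation (chr6:41557691-41558452, minus strand), was used less, at 3.77% to 6.29% against 7.85% to 11.1% (−0.95 ± 0.20, adjusted p = 0.000242, edgeR). TRBV23 (chr6:41216073-41216526, plus strand) made up 0.548% on average against 1.09%, from 28 short-gap sequences in all, with overlapping ranges and a higher share in 2 of 6 mice (−1.61 ± 0.47, adjusted p = 0.00878, edgeR). Untrimmed TRBV16 and TRBV23 each contribute 17 germline bases to the CDR3 and TRBV31 13. Of the 3 calls, 1 was lost when WT replicate 3, WT replicate 4 or KO replicate 3 was left out. When UMIs were counted in place of sequences, 0 of 24 V segments passed and 6 had an unadjusted p under 0.05 (edgeR).

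Among J segments, 2 of 12 tested (16.7%) differed. TRBJ1-3 was used more, at 9.37% to 13.2% of short-gap sequences against 4.97% to 7.28% of the others (log2 fold change 0.89 ± 0.19 SE, adjusted p = 0.000183, edgeR), and among short-gap clonotypes it is also the J segment with the highest share of upstream J starts. TRBJ2-1 (chr6:41542754-41542803, plus strand) was used less, at 2.78% to 11.2% against 7.93% to 12.6%, lower in 5 of 6 mice (−0.72 ± 0.21, adjusted p = 0.00729, edgeR), and it did not pass when WT replicate 3, KO replicate 1 or KO replicate 3 was left out, which left 1 J segment each. With the exact gap, the log2 fold changes kept their direction, at 0.96 ± 0.16 for TRBV16, −0.76 ± 0.16 for TRBV31, −1.99 ± 0.59 for TRBV23, 0.58 ± 0.16 for TRBJ1-3 and −0.45 ± 0.22 for TRBJ2-1. The set of segments that passed changed. TRBJ2-1 no longer passed (adjusted p = 0.114, edgeR). TRBV3, TRBV5, TRBV21, TRBJ1-1, TRBJ1-4 and TRBJ1-6 passed with the exact gap only, TRBJ1-6 at 1.41 ± 0.24 (adjusted p = 0.000266, edgeR). Counting UMIs, 0 of 12 J segments passed in edgeR and 1 had an unadjusted p under 0.05. The J segment and the length of germline it offers enter the alignment that sets the gap, and their part in these differences was not tested.

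**Figure D5:**
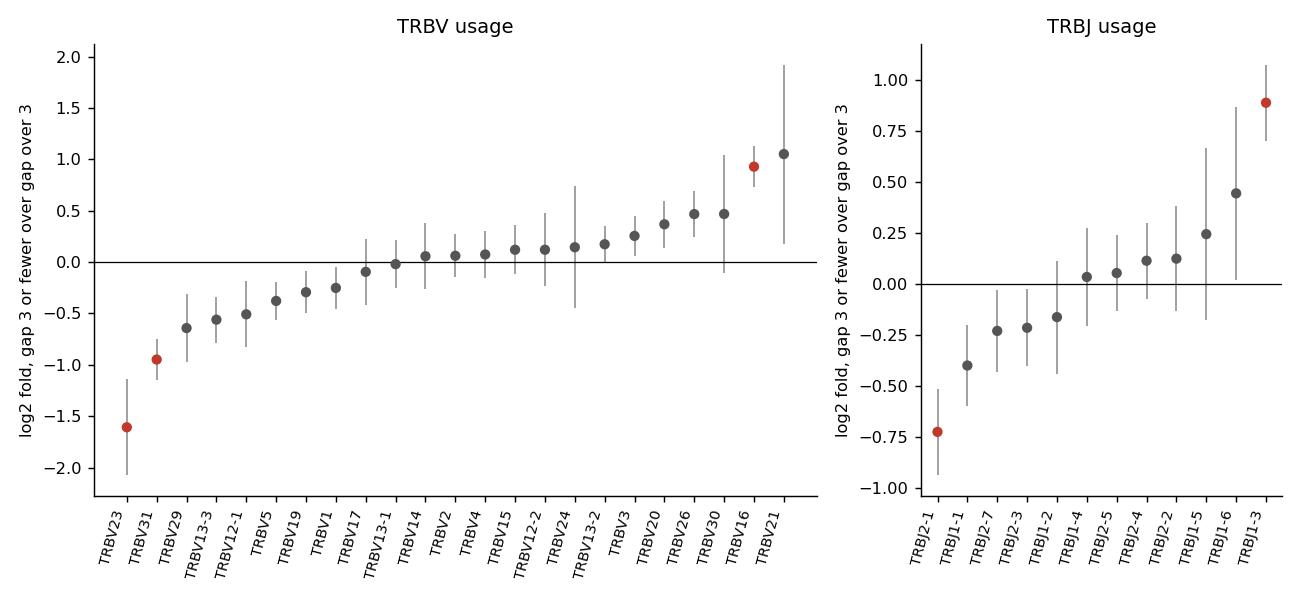
Log2 fold change ± SE of segment usage (distinct CDR3 nucleotide sequences per mouse), gap of 3 or fewer over gap over 3, for TRBV (left) and TRBJ (right) segments; red points have an adjusted p under 0.05 (edgeR). TRBV16 (0.93) and TRBJ1-3 (0.89) lie above 0, and TRBV31 (−0.95), TRBV23 (−1.61) and TRBJ2-1 (−0.72) below.

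Between KO and WT, 1 of 18 V segments tested (5.56%) differed in usage among short-gap clonotypes. TRBV13-1 (chr6:41116007-41116468, plus strand) made up 5.17% to 17.4% of short-gap sequences in WT and 2.22% to 6.05% in KO (log2 fold change −1.46 ± 0.42 SE, adjusted p = 0.0495, edgeR). The highest WT value was that of replicate 4, where 278 of 479 short-gap TRBV13-1 sequences shared the V and J pair of its leading clonotype. Without that mouse no V segment passed (smallest adjusted p = 0.975, edgeR), and 0 had an unadjusted p under 0.05. The call was also lost without any 1 of the 3 KO mice. Among J segments, 0 of 12 (0%) passed in edgeR and 0 had an unadjusted p under 0.05, with TRBJ1-1 lowest in p (−0.66 ± 0.34, adjusted p = 0.441, edgeR), and DESeq2 called 0 as well.

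The threshold itself marks no step. The 2511 clonotypes with a gap of 3, just inside it, had 71.3% clonotypes of 1 UMI, a mean of 0.98 log2 UMIs and 6.21% of sequences found in another mouse. The 3425 with a gap of 4, just outside, had 71.1%, 0.97 and 4.67%. Gaps of short-gap clonotypes were below 0 in 1345 cases, which means that the V and J alignments overlapped. Trimming comes from the same alignments as the rule, which largely fixes its direction, so its p-values are not read as results. Short-gap clonotypes had 1.84 V bases and 1.38 J bases trimmed on average, and the others 2.95 and 3.31, while the exact class had 1.76 and 2.26.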

How the data were processed

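Deposited clonotype tables of 12 libraries were used. The authors prepared 5′ RACE cDNA with UMIs, sequenced on a MiSeq, built UMI consensus sequences with MIGEC and aligned them with MiXCR at default parameters. Versions and the V and J reference are not given in the sources used here. The deposited clone counts were taken as UMIs, and the deposited clone fraction, which equals count over library total, served as a check. Totals ranged from 2488 to 493287 UMIs, so shares in the smallest library are the least precise, and 3 counts equal 0.000608% to 0.121% of a library. UMI collapsing and alignment preceded deposition and were not redone.

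Entries with the same CDR3 in a library were summed (2 entries). The gap is field 17 minus field 12 of the alignment points. Germline ends were read from GRCm38 with GENCODE vM21, in which coordinates are given. Member shares of WT and KO mice were compared by exact permutation over 20 assignments, and organs and classes of clonotype of the same mouse by an exact test that flips the signs of the 6 differences (64 patterns), with Benjamini-Hochberg adjustment over 4, 2, 8 and 2 comparisons and a threshold of under 0.05. Nothing states that libraries are more than separate samples of single mice, so p-values measure the spread between these mice. Recurrence between mice is an exception, because a shared sequence is counted in each mouse that holds it. The organs of a mouse were paired by genotype and replicate number. Between 24.8% and 92.9% of short-gap sequences of an mLN library occurred in the spleen of the same number, and at most 17.9% in that of another mouse. Segments with at least 10 sequences in at least 3 columns were tested with edgeR 4.0.16 in R 4.3.3 on library totals, with the mouse as a block between classes of clonotype. DESeq2 1.42.0, TMM scaling, other gap limits, filters and downsampling to 2488 UMIs over 20 draws were alternatives. The exact germline gap, the length weights, leaving out upstream J starts or the largest clonotypes, and adjusting over 6 comparisons without trimming were chosen after seeing the data. Standard errors of log2 fold changes were derived from the quasi-likelihood F statistic. Methods were tested on simulated data.

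Named segments were those with an adjusted p under 0.05 (up to 5 higher and 5 lower), or that with the smallest p. Named clonotypes were the largest short-gap clonotype of each mouse and up to 8 found in the most mice. TRBJ1-3 and TRBJ2-4 flanks and the J segments with high and low shares of upstream starts were chosen after their values were seen. The members and lists were chosen with earlier results of these data known.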

Additional observations from a re-analysis of the deposited data

Results flagged for a closer look

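Clonotypes outside the comparisons, with a frameshift or stop codon, also held short gaps. Of 20126 nonproductive clonotypes, 1469 (7.30%) had a gap of 3 or fewer nucleotides in the deposited alignment, which is above the limit that a count of 0 allows in each of 11 libraries and equal to it in mLN of KO replicate 3, with 3 of 38. Per library the share was 5.73% to 8.61%, and it was lower than that of productive clonotypes in 11 of 12 libraries. By exact germline gap, 1.48% of nonproductive and 1.65% of productive clonotypes had 3 or fewer nucleotides. The difference was not tested. Among the differences of the 6 mice in the 10 comparisons within mice, 0 stood apart from the others by Dixon's criterion at the 95% level.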

How the results depend on the processing

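Of 375 alternative values for 20 results, 323 kept direction and side of the threshold, 16 reversed in direction, 20 came to pass the threshold or, for counts of segments, rose by more than 1.5 times, and 16 such counts fell by more than that. No genotype or organ comparison of a share, or of a difference between classes of clonotype, passed under any alternative. The reversals were among these comparisons, and the cause was not tested. KO minus WT of the clonotype share in spleen was −0.0566 percentage points at a gap of 0 or less, −0.113 after downsampling, −0.158 without upstream J starts, and −0.819 to 0.917 with 1 mouse left out. KO minus WT of the UMI share was 3.13 in mLN and 8.03 in spleen at a gap of 6 or fewer, and 0.650 in mLN without the largest clonotypes. The UMI share of mLN minus spleen was −0.108 at a gap of 0 or less, −0.849 at 6 or fewer, −0.178 without the smallest library, and −0.178 to 1.68 with 1 mouse left out. KO minus WT of the difference in sharing between organs was 0.940 with the exact gap and −1.70 to 0.395 with 1 mouse left out.

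At a gap of 6 or fewer, 7 differences between short-gap and other clonotypes passed with an adjusted p of 0.036 (exact sign-flip test over 6 mice). They were 0.185 for log2 UMIs, −3.47 for clonotypes of 1 UMI, 1.69 for both organs, 3.30 and 7.86 for nucleotide and amino acid sequences in another mouse, and −1.0 and −1.81 for V and J bases trimmed. With trimming, which the rule largely fixes, taken out of the adjustment, the other 5 had an adjusted p of 0.0375 there. At a gap of 3 or fewer the smallest was then 0.062. The differences for sequences in another mouse are not independent between mice, which limits their p-values at every gap. Trimming was also past the threshold without replicate block, that is with the mice unpaired (−0.948 and −1.66), which is not read as a result.

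Segments differing between classes numbered 0 for V and 0 for J counting UMIs, 5 for V without unusual J ends, 4 for J without clonotypes of 1 UMI, and 6 for V and 4 for J with the exact gap. With 1 mouse left out they numbered 2 to 4 and 1 to 2. Between KO and WT, V segments numbered 0 with TMM, DESeq2, UMIs, no clonotypes of 1 UMI, no unusual J ends, the replicate block and the exact gap, 2 without a filter, and 0 to 1 with 1 mouse left out. J segments numbered 2 with the exact gap and 0 to 0 with 1 mouse left out.

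WT and KO share replicate numbers 1 and 3, and deviations in V usage correlated by 0.00795 and 0.0115 in these 2 pairs. All 4 libraries of replicate 1 had few unusual J ends and at most 64882 UMIs, properties they shared across genotypes. Nothing in the labels ties the pairs to a batch, and 2 pairs are too few to judge pairing. With the replicate block, KO minus WT was 2.27 in mLN and 0.00106 in spleen for clonotypes, −1.94 and −2.72 for UMIs, −0.129 for clone size and −1.93 for sharing between organs, where 2 pairs allow no p below 0.5. The smallest library, with 28 short-gap clonotypes, limits the mLN comparison, and 3 against 3 mice allow no p below 0.1.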
